A study of Mus musculus with 14 samples.

Results

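Fer1l4, Il1rn, Acbd7 and Cuzd1 are 4 of the 21853 protein-coding genes measured by RNA-seq in the ovary and uterus of aged mice. They were chosen because the difference between treated and control mice (OT minus OC) had one sign in the ovary and the other sign in the uterus. Fer1l4 and Il1rn were lower in OT than in OC ovaries and higher in OT than in OC uteruses, and Acbd7 and Cuzd1 were the reverse. The OT minus OC values themselves made the choice, so they are described here without a test. The OC and OT groups were C57BL/6J females of 28 weeks. The 4 OT mice received conditioned medium of human amniotic membrane-derived mesenchymal stem cells (AMSC-CM) through the tail vein, at 1 µL per g of body weight, in 6 injections given 4 days apart, and the 3 OC mice received saline. All mice of both groups had been given PMSG and then hCG, 10 IU each and 48 h apart, before the first injection. Each mouse gave 1 ovary library and 1 uterus library by the names of the samples, which makes 14 libraries in 4 groups, with 3 OC and 4 OT libraries per tissue. Nothing in the labels ties OC1 to OT1, and the libraries of a group are taken as separate mice.

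The 4 genes belong to unrelated families. Il1rn encodes the interleukin-1 receptor antagonist, which occupies the IL-1 receptor without signalling and so blocks IL-1 alpha and IL-1 beta. The IL-1 system is known in the ovary for its part in ovulation and in the uterus for its part in inflammation. Cuzd1 encodes a membrane protein with CUB and zona pellucida-like domains, which is known as a zymogen granule protein of the pancreas and as an estrogen-regulated gene of the uterus and ovary. Fer1l4 is a member of the ferlins, large membrane proteins with several C2 domains that act in vesicle fusion and membrane repair, and its human counterpart is annotated as a pseudogene. Acbd7 encodes a small acyl-CoA-binding protein related to Dbi, the diazepam-binding inhibitor.

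By the GENCODE mouse M21 annotation of mm10, 3 of the genes are on chromosome 2 and Cuzd1 is on chromosome 7. Acbd7 (ENSMUSG00000026644.7) lies at chr2:3336168-3340993 on the plus strand, and both of its transcripts, of 534 and 531 nt, are coding. Il1rn (ENSMUSG00000026981.15) lies at chr2:24336853-24351494 on the plus strand, with a longest coding transcript of 2474 nt in 5 exons. Fer1l4 (ENSMUSG00000013338.16) lies at chr2:156019139-156052947 on the minus strand, with a longest coding transcript of 6106 nt in 45 exons. Cuzd1 (ENSMUSG00000040205.8) lies at chr7:131308554-131322292 on the minus strand, with 1 transcript of 2256 nt in 9 exons. It stands inside the span that the annotation gives to Fgfr2, the FGF receptor 2 gene, on the same strand, and shares 0 exon bases with it.

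The promoters of the 4 genes are shown so that the pairs with the same pattern can be compared letter by letter. Each window runs from 250 bases before the RefSeq start to 50 bases after it on GRCm38.p6, written 5′ to 3′ on the strand of the gene. The windows are chr2:156052944-156053243 (minus) for Fer1l4, chr2:24336610-24336909 (plus) for Il1rn, chr2:3335918-3336217 (plus) for Acbd7 and chr7:131322243-131322542 (minus) for Cuzd1. RefSeq gives Il1rn 3 starts, and the one nearest to the GENCODE start was used. Capitals mark the nuclear receptor half-site (GGTCA, or TGACC on the other strand), the AP-1 site (TGANTCA) and the CCAAT box (CCAAT).
Fer1l4: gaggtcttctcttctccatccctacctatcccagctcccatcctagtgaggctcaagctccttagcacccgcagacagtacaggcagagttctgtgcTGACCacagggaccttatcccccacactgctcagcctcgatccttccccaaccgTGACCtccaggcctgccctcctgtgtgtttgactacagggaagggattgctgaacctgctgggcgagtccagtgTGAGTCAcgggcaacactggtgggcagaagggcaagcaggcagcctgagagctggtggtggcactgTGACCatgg
Il1rn: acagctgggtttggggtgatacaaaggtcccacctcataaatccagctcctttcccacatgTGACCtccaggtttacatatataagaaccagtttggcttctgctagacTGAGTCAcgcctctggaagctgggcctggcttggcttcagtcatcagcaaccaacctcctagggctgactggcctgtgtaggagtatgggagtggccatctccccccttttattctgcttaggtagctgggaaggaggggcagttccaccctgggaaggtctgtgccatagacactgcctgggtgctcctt
Acbd7: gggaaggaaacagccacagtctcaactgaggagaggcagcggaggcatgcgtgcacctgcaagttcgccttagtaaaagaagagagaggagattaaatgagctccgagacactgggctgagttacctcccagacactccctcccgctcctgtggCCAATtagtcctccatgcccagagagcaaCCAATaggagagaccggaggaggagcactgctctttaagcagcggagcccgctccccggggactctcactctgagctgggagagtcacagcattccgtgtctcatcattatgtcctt
Cuzd1: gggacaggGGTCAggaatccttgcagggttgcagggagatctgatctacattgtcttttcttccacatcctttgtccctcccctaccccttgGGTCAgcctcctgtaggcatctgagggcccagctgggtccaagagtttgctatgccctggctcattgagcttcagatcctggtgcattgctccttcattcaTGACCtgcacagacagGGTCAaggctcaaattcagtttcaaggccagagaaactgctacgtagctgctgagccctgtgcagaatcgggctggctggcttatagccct
Both genes that were lower in OT ovaries hold 1 AP-1 site, at base -25 from the start in Fer1l4 and at base -141 in Il1rn. The AP-1 letters are in 7.81% of the 32817 RefSeq promoters of this length, counted on both strands. The half-site occurs 4 times in Cuzd1, 3 times in Fer1l4, 1 time in Il1rn and 0 times in Acbd7, and 40.5% of all promoters hold it. The CCAAT box occurs 2 times in Acbd7 and in no other of the 4 windows, against 37.4% of all promoters. Neither a full estrogen response element (an inverted pair of half-sites, in 0.0701% of promoters) nor a TATA box (TATAAA, in 13.6%) was found in the 4 windows. A full element would hold 2 half-sites and overlap that motif. The matches describe these letters only.

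Levels are in FPKM, the fragments of a gene scaled to the length of its transcript and to the mapped fragments of the library. Fer1l4 was the highest of the 4 genes in OC ovaries and OT uteruses. In the ovary its level was 1.34, 1.93 and 1.57 FPKM in OC1, OC2 and OC3, and 0.189, 0.641, 0.749 and 0.788 FPKM in OT1, OT2, OT3 and OT4. All 4 OT ovaries were below all 3 OC ovaries, and the OT1 ovary had the lowest level of all 14 libraries. In the uterus its level was 0.917, 2.16 and 1.56 FPKM in OC1 to OC3, and 3.74, 4.79, 2.19 and 2.12 FPKM in OT1 to OT4. The OT1 and OT2 uteruses stood well above the rest, whereas OT3 and OT4 were next to OC2 and the ranges overlapped. The group means were 1.61 ± 0.293 FPKM (SD, n = 3) in OC and 0.592 ± 0.276 FPKM (SD, n = 4) in OT ovaries, and 1.54 ± 0.620 FPKM (SD, n = 3) in OC and 3.21 ± 1.29 FPKM (SD, n = 4) in OT uteruses. On the log2(FPKM + 0.1) scale, which understates changes of low genes, OT minus OC was -1.42 for the ovary (pooled SD 0.61) and 1.00 for the uterus (pooled SD 0.57). Ordered by mean, OT ovary was lowest, OC uterus and OC ovary came next with overlapping ranges, and OT uterus was highest, apart from all other groups but the OC uterus.

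Il1rn was near 1 FPKM in control ovaries and far lower in control uteruses. Its level was 0.772, 1.24 and 1.12 FPKM in the ovaries of OC1 to OC3, and 0.480, 0.705, 0.203 and 0.184 FPKM in those of OT1 to OT4. In the uterus it was 0.233, 0.328 and 0.0992 FPKM in OC1 to OC3, and 2.39, 0.796, 0.520 and 0.339 FPKM in OT1 to OT4. The groups did not overlap in either tissue, but the gaps were narrow: OT2 was just under OC1 in the ovary, and OT4 was just over OC2 in the uterus. The OT1 uterus held the highest level of the series. OT minus OC on the log2(FPKM + 0.1) scale was -1.33 for the ovary (pooled SD 0.60) and 1.53 for the uterus (pooled SD 0.91). The mean levels ran from 0.220 ± 0.115 FPKM in OC uteruses (SD, n = 3) through 0.393 ± 0.248 in OT ovaries (SD, n = 4) and 1.01 ± 0.936 in OT uteruses (SD, n = 4) to 1.04 ± 0.244 FPKM in OC ovaries (SD, n = 3). The ranges of each pair of neighbours in this order overlapped.

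Cuzd1 had the mirror image of that pattern. In the ovary its level was 0.179, 0.118 and 0.166 FPKM in OC1 to OC3, and 1.86, 0.552, 0.213 and 0.646 FPKM in OT1 to OT4. In the uterus it was 1.59, 0.731 and 0.900 FPKM in OC1 to OC3, and 0.0535, 0.0618, 0.291 and 0.711 FPKM in OT1 to OT4. The groups were again apart in FPKM in both tissues, but the gaps were narrow: OT3 was close to the OC ovaries and OT4 to the lowest OC uterus. The OT1 mouse carried both the highest Cuzd1 level of all ovaries and the lowest of all uteruses. On the same log2 scale, OT minus OC was 1.55 for the ovary (pooled SD 0.85) and -1.91 for the uterus (pooled SD 0.95). The means ran in the order OC ovary (0.154 ± 0.0324 FPKM, SD, n = 3), OT uterus (0.279 ± 0.308, SD, n = 4), OT ovary (0.817 ± 0.717, SD, n = 4) and OC uterus (1.07 ± 0.456 FPKM, SD, n = 3), and each pair of neighbours overlapped.

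Acbd7 had the largest difference of the 4 in the uterus and the weakest measurement. In the ovary its level was 0.667 and 0.324 FPKM in OC1 and OC2, listed at 0 in OC3, and 0.308, 0.825, 0.782 and 0.642 FPKM in OT1 to OT4. In the uterus it was 2.93, 1.07 and 1.09 FPKM in OC1 to OC3, 0.334 FPKM in OT2 and 0.604 FPKM in OT4, and it was listed at 0 in OT1 and OT3. The 4 OT uteruses were below all 3 OC uteruses, whereas in the ovary the groups overlapped. OT minus OC on the log2 scale was 1.14 for the ovary (pooled SD 1.05) and -2.78 for the uterus (pooled SD 1.23). The ovary value rested on the OC3 library, without which it was 0.31, and it was 1.78 without OC1. By mean level the order was OT uterus, OC ovary, OT ovary and OC uterus, and only the last step had ranges apart.

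**Figure D1:**
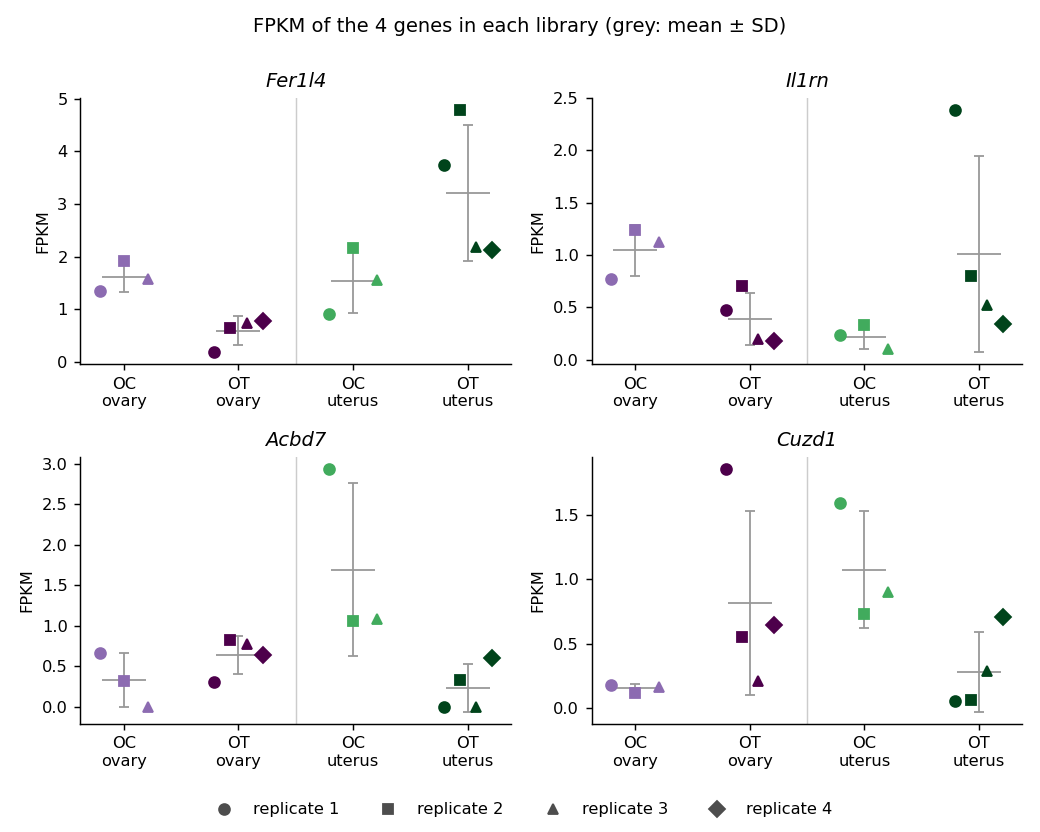
FPKM (y axis) of Fer1l4, Il1rn, Acbd7 and Cuzd1 in each of the 14 libraries, with one symbol per replicate number, grouped by treatment and tissue on the x axis, and grey bars for the mean ± SD. In Fer1l4 and Il1rn the OT libraries sit below the OC libraries in the ovary and mostly above them in the uterus, and in Cuzd1 the reverse is seen.

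The 4 genes are all weakly expressed. A gene was tested in a tissue where it averaged 0.5 FPKM or more, and all 4 genes passed in both tissues. Their mean over the 7 libraries of a tissue was between 0.507 and 2.497 FPKM, where the median of the 13653 genes tested in both tissues was 11.7 FPKM for the ovary and 12.0 FPKM for the uterus. The deposited values hold no counts, so the number of fragments behind each value was estimated from the smallest steps between the FPKM of low genes, on the assumption that all fragments came from the longest coding transcript. The estimate was chosen after the data had been seen, and between 57.9% and 68.3% of the low values came within 0.2 of a whole number of fragments, so it is approximate. It placed the libraries at about 6220000 to 8780000 fragments. Fer1l4 rested on 60 to 87 fragments per OC ovary, 9 to 34 per OT ovary, 45 to 87 per OC uterus and 83 to 202 per OT uterus. Il1rn rested on 13 to 22, 3 to 14, 1 to 5 and 6 to 45 fragments in the same order of groups. Cuzd1 rested on 2 to 3, 3 to 30, 10 to 27 and 1 to 11 fragments. Where the FPKM of OC and OT came nearest, the estimates for Il1rn and Cuzd1 were nearly equal. Il1rn had 13 fragments in the OC1 and 14 in the OT2 ovary, and 5 in the OC2 and 6 in the OT4 uterus. Cuzd1 had 3 in the OC1, OC3 and OT3 ovaries, and 10 in the OC2 and 11 in the OT4 uterus. At this depth it is therefore not settled that their groups are apart. Acbd7 was so short and so low that a whole group held few fragments: 2 in the OC ovaries, 8 in the OT ovaries, 15 in the OC uteruses and 3 in the OT uteruses. A single fragment of it was worth 0.257 to 0.598 FPKM, and a value of 0 allows up to 3 fragments, or 1.27 FPKM in the OC3 ovary, 1.28 FPKM in the OT1 uterus and 1.23 FPKM in the OT3 uterus. The levels of Acbd7 in OC2 and OC3 uteruses lie under these limits, so a difference between those libraries and the ones listed at 0 was not detectable at this depth. All OT ovaries, at up to 0.825 FPKM, lie under the limit of the OC3 ovary, so the sign of Acbd7 in the ovary is not settled either. These limits cover counting error only.

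**Figure D2:**
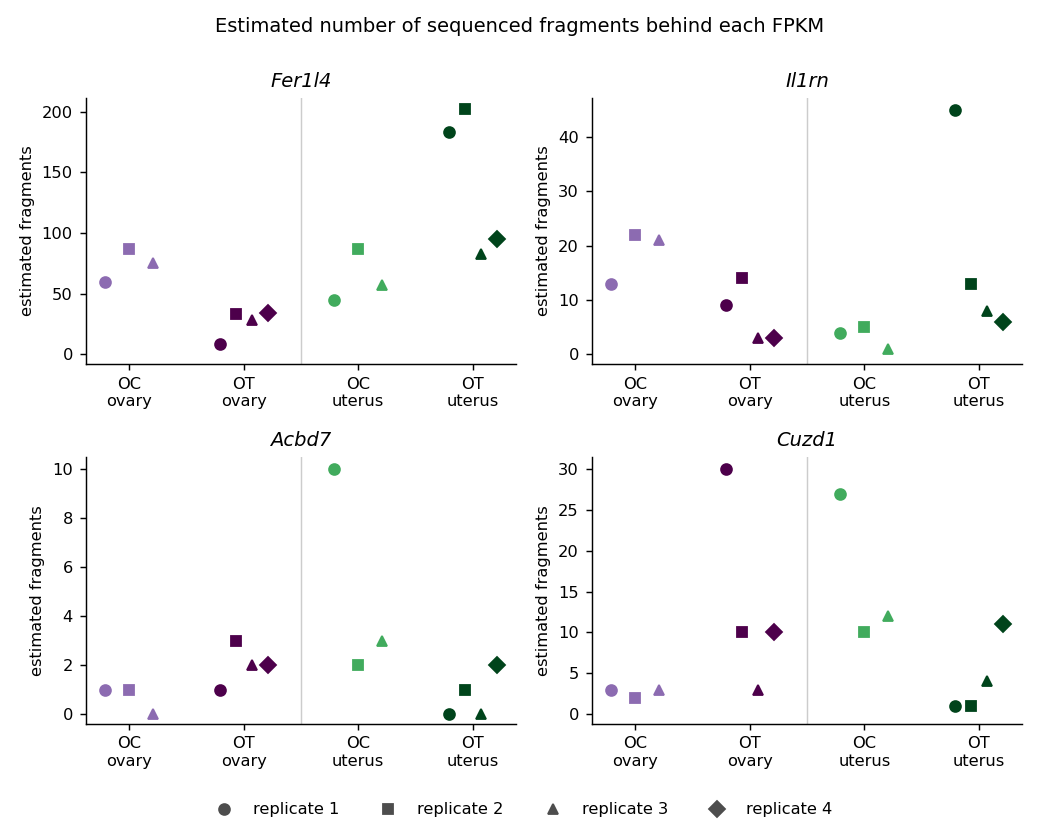
Estimated number of sequenced fragments (y axis) behind each FPKM of the 4 genes, by treatment and tissue (x axis), with one symbol per replicate number. Fer1l4 reaches 202 fragments in an OT uterus, while Acbd7 has at most 10 in any library.

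Opposite signs are common among all genes. Of the 13653 genes tested in both tissues, 5862 (42.9%) had opposite signs of OT minus OC, and the 4 genes were picked among them. The signs were also opposite for 79 of 194 genes that were tested in both tissues, lower in OT ovaries with groups apart and at an unadjusted limma p under 0.05, and for 91 of 330 such genes of the uterus. By size, Fer1l4 and Il1rn ranked 4 and 5 among the 200 genes lower in OT ovaries by these criteria, and Acbd7 and Cuzd1 ranked 1 and 5 among the 339 lower in OT uteruses. These ranks and the p cutoff use the values that chose the genes, so they only place the 4 genes and nothing is read from them. The rule turns on the sign in the other tissue, so its limit is a log2 difference of 0 there. Nearest to it among the ovary genes were Tmf1, just inside at 0.0014 in the uterus, and Usp1, just outside at -0.0006. Among the uterus genes they were Chd6, just inside at 0.0001 in the ovary, and Spin1, just outside at -0.0014. In the other tissue, Fer1l4, Il1rn and Cuzd1 stood at 1.00, 1.53 and 1.55, away from this limit. Acbd7 was less settled, at 1.14 in the ovary with overlapping groups, and at 0.31 without the OC3 ovary. Opposite signs with a fold of at least 2 in both tissues were seen in 9 genes (0.0659%), the 4 genes among them. The other 5, which are named after their values were seen, were Cd3d and 1700029I15Rik with the direction of Il1rn, and Spink8, Fam220a and Pvrig with the direction of Cuzd1. Tissue means of the 9 genes ranged from 0.507 to 8.41 FPKM, all under the median of the tested genes.

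Groups apart in both tissues were seen in a small share of the genes. The OT and OC libraries did not overlap in either tissue and moved in opposite directions in 17 genes (0.125%), Il1rn and Cuzd1 among them, and in the same direction in 103 genes (0.754%). None of the other 15 genes had a fold of at least 2 in both tissues. In 1 tissue alone, all OT libraries were above all OC libraries in 2.78% and below them in 3.13% of the tested ovary genes, and in 6.46% and 5.48% of the tested uterus genes. The groups of the 4 genes were apart in 3 of 4 in each tissue, a count that the choice of the genes used. The study's cutoffs were a fold of 2 and an unadjusted p of 0.05. With them limma called 65 of 14415 ovary genes (0.451%), 53 higher (0.368%) and 12 lower (0.0832%) in OT, and 410 of 14151 uterus genes (2.9%), 316 higher (2.23%) and 94 lower (0.664%). Genes called in both tissues with opposite signs numbered 2 (0.0146%), Fer1l4 and Cuzd1, against 29 (0.212%) with the same sign, but these counts come from the contrast that chose the genes and nothing is read from them. The 2 genes became 0 to 4 with 1 library left out (0 without the OC3 or the OT2 uterus), 0 with a pseudocount of 1 FPKM and 1 (Cuzd1) with upper-quartile scaling. At an adjusted p under 0.05 limma called 0 genes in either tissue, and at an unadjusted p under 0.05 it called 650 ovary genes (4.51%) and 1160 uterus genes (8.2%).

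**Figure D3:**
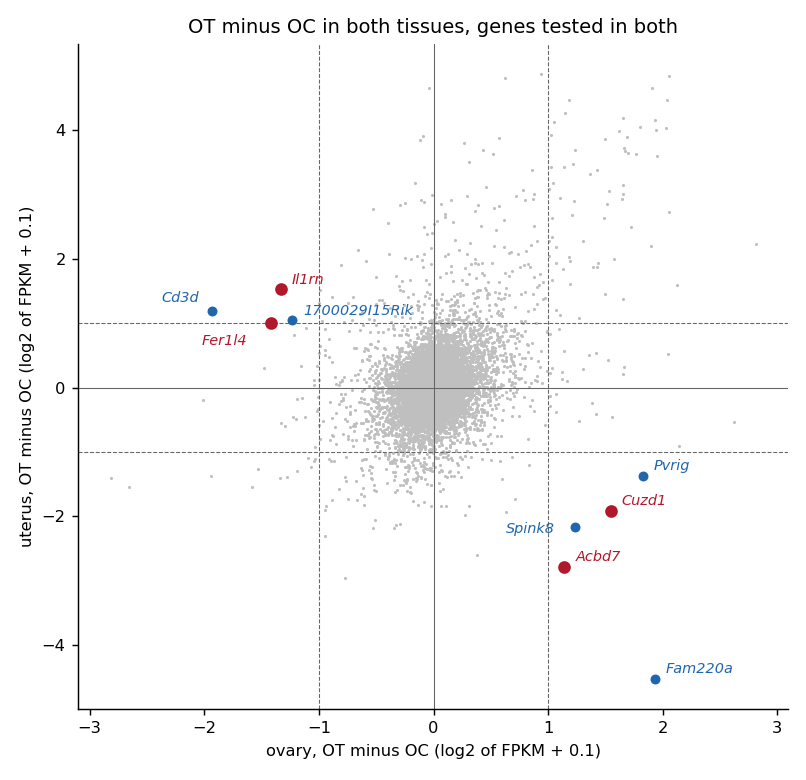
OT minus OC on the log2(FPKM + 0.1) scale in the ovary (x axis) and the uterus (y axis) for the 13653 genes tested in both tissues, with dashed lines at a fold of 2. Red points are the 4 genes and blue points the 5 others with opposite signs and a fold of at least 2 in both tissues, which stand apart from the mass of genes around 0.

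Each tissue was then averaged over all 7 mice and the tissues were compared. The weights keep the error of this mean apart from that of OT minus OC, but the mean holds the OT mice and so contains part of the values that chose the genes. Fer1l4 was higher in the uterus by limma, and the difference came from the OT mice, at 2.30 in these alone against -0.12 in the OC mice alone. It is therefore no separate evidence beside OT minus OC. The other 3 genes showed no tissue difference beyond the spread. Fer1l4 stood at 1.03 ± 0.605 FPKM in the ovaries and 2.497 ± 1.32 FPKM in the uteruses (SD, n = 7 each). Its uterus minus ovary difference was 1.26 on the log2(FPKM + 0.1) scale (SE 0.30, 95% interval 0.63 to 1.90, limma adjusted p 0.00285). Among all genes limma called 3106 of 15268 (20.3%) between the tissues, 1527 of them higher (10.0%) and 1579 lower (10.3%) in the uterus. The exact two-sided sign-flip permutation test over the 7 mice gave p = 0.0938 for Fer1l4, or 0.375 adjusted over the 4 genes, where the smallest p it can give is 0.0156. The uterus was the higher tissue in 5 of 7 mice. Mouse by mouse the difference was -0.50, 0.16 and -0.01 in OC1 to OC3 and 3.74, 2.72, 1.43 and 1.32 in OT1 to OT4. The OC mice lay around 0 and all 4 OT mice were above them. The limma fit gives OC and OT their own means, so its interval leaves out the spread between the OC and OT mice, which the sign-flip test includes. The limma difference fell under a fold of 2 without OT1, at 0.85.

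Il1rn differed by -0.25 between uterus and ovary (95% interval -1.09 to 0.59, limma adjusted p 0.620). Cuzd1 differed by 0.17 (95% interval -0.80 to 1.14, limma adjusted p 0.770) and Acbd7 by 0.10 (95% interval -1.10 to 1.29, limma adjusted p 0.897). These intervals leave room for a difference of about a fold of 2 in at least one direction. The means hid opposite mice: Il1rn was at -1.39, -1.65 and -2.61 in OC1 to OC3 and at 2.10, 0.15, 1.03 and 0.63 in OT1 to OT4. Cuzd1 was at 2.60, 1.93 and 1.91 in the OC mice and at -3.67, -2.01, 0.32 and 0.12 in the OT mice. Acbd7 was at 1.98, 1.46 and 3.57 in the OC mice and at -2.03, -1.09, -3.14 and -0.08 in the OT mice. In each of the 4 genes the OC and OT mice did not overlap, which restates the differences that chose them.

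**Figure D4:**
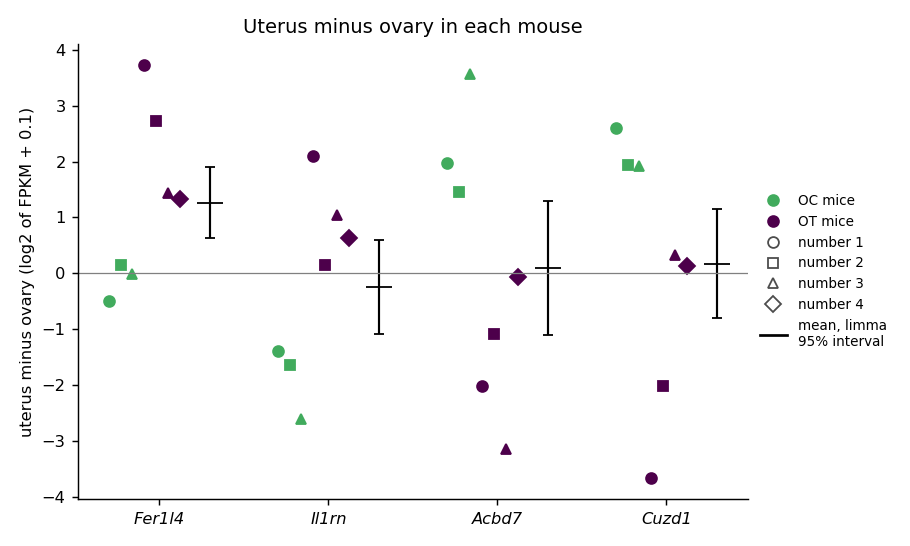
Uterus minus ovary (y axis, log2 of FPKM + 0.1) in each of the 7 mice for the 4 genes (x axis), with green symbols for OC mice, purple symbols for OT mice, and black bars for the mean of the 7 mice with the 95% interval of the unpaired limma fit, which leaves out the spread between OC and OT mice. The 4 OT mice lie above the 3 OC mice in Fer1l4 and Il1rn and below them in Acbd7 and Cuzd1.

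The levels of the 4 genes were also compared with each other over the libraries. With the mean of each tissue taken off, Fer1l4 and Cuzd1 had a Pearson r of -0.92 over the 14 libraries, Fer1l4 and Il1rn one of 0.62, Il1rn and Cuzd1 one of -0.69, Il1rn and Acbd7 one of -0.69, Acbd7 and Cuzd1 one of 0.59, and Fer1l4 and Acbd7 one of -0.47. The libraries share mice, and the OT minus OC differences that chose the genes were not taken off. The signs of r follow from those differences, so these values are descriptions and do not show variation shared between mice of one group. Among 14912 genes compared in the same way, those most like Fer1l4 were Atp6v1f (r 0.89), a subunit of the vacuolar proton pump, Tmem106b (r 0.88), a lysosomal membrane protein, and Bmper (r 0.88), a secreted regulator of BMP signalling. Those most like Il1rn were Lipt1 (r 0.91), a lipoyltransferase, Prkag1 (r 0.90), a regulatory subunit of AMPK, and Trappc8 (r 0.90), a subunit of a vesicle-tethering complex. Most like Acbd7 were Shtn1 (r 0.88), known from axon growth, Prkrip1 (r 0.88) and Tc2n (r 0.86), and among those most like Cuzd1 were Aff4 (r 0.88), a part of the super elongation complex, and Kat2a (r 0.87), a histone acetyltransferase. Trappc8 was also among the 17 genes with groups apart in opposite directions.

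The relatives and partners of the 4 genes were read next. Of 76 listed genes, 75 were in the table. In the ovary 61 were tested and limma called 1 higher and 0 lower, beside 0.451% of all tested genes, with a median OT minus OC of -0.06 beside -0.01 over all tested genes. In the uterus 55 were tested and limma called 2 higher and 0 lower, beside 2.9% of all tested genes, with a median of 0.09 beside 0.01. A count of 2 is near this background. At an adjusted p under 0.05, limma called 0 of them in either tissue. The calls were Il1b in the ovary and Il33 and Dbi in the uterus, and all 3 were higher in OT.

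Il1rn blocks the receptor that the ligands Il1a and Il1b use, so the IL-1 system was read by role. Of 8 ligands, 4 were tested in each tissue. Il1b, which encodes IL-1 beta, was at 0.485, 0.287 and 0.181 FPKM in OC1 to OC3 ovaries and at 0.734, 0.736, 0.696 and 2.78 FPKM in OT1 to OT4 ovaries. It rose by 1.49 on the log2(FPKM + 0.1) scale in the ovaries in which Il1rn was lower (SE 0.54, limma unadjusted p 0.0221, adjusted p 0.997), and the call was lost without the OC2 or the OC3 ovary. In the uterus Il1b was under the level needed for a test. Il33, which encodes an alarmin that signals through its own receptor Il1rl1, was at 2.00, 4.21 and 1.31 FPKM in OC1 to OC3 uteruses and at 9.08, 8.05, 27.8 and 16.1 FPKM in OT1 to OT4 uteruses. The groups were far apart, and the difference was 2.53 (SE 0.51, limma unadjusted p 0.00105, adjusted p 0.357). The summed stratified epithelium markers were at 2.75 to 13.5 FPKM in OC uteruses and at 236.0, 43.9, 778.3 and 383.3 FPKM in OT1 to OT4 uteruses, in the same order as Il33, and their part in the result was not tested. In the ovary Il33 did not pass the cutoffs, at 0.01 (SE 0.26). Il18 was the highest ligand in the ovary, at 8.65 ± 1.75 FPKM in OC (SD, n = 3) and 10.1 ± 1.34 FPKM in OT (SD, n = 4), and did not pass the cutoffs.

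None of the other inhibitors, receptors or signalling genes of the system was called. Of the 4 other inhibitors, 2 were tested in the ovary and 3 in the uterus. The highest was Il18bp, the secreted binding protein of IL-18, at 8.74 ± 1.65 FPKM in OC ovaries (SD, n = 3) and 8.69 ± 0.818 FPKM in OT ovaries (SD, n = 4), and at 8.35 ± 0.868 and 7.40 ± 2.18 FPKM in the uterus. Il1r1, the receptor that Il1rn occupies, was the highest of 6 receptors, at 12.1 ± 0.826 and 11.4 ± 0.955 FPKM in OC and OT ovaries and at 13.3 ± 1.83 and 15.0 ± 1.52 FPKM in OC and OT uteruses (SD, n = 3 and 4). Its OT minus OC was -0.10 (SE 0.10) for the ovary and 0.17 (SE 0.15) for the uterus. Of 11 signalling and processing genes, all tested in both tissues, the highest was the kinase Irak1, at 35.2 ± 4.75 and 37.1 ± 2.499 FPKM in OC and OT ovaries and at 35.1 ± 2.95 and 34.2 ± 5.36 FPKM in OC and OT uteruses.

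Among the acyl-CoA-binding proteins, Dbi was higher in OT uteruses, where Acbd7 was lower. Dbi was at 114, 102 and 103 FPKM in OC1 to OC3 uteruses and at 862, 180, 282 and 173 FPKM in OT1 to OT4 uteruses. All OT uteruses were above all OC uteruses, and OT1 stood far above the others. The rise was 1.47 on the log2(FPKM + 0.1) scale (SE 0.51, limma unadjusted p 0.0209, adjusted p 0.550), and the call was lost without the OC2, the OC3 or the OT1 uterus. The summed adipocyte markers were at 99.8 to 379.5 FPKM in OC uteruses and at 16648, 1882, 3493 and 1933 FPKM in OT1 to OT4 uteruses, also with OT1 far above the others, and their part in the result was not tested. In the ovary Dbi was at 212 ± 30.6 FPKM in OC (SD, n = 3) and 248 ± 32.8 FPKM in OT (SD, n = 4) and was not called, nor were the other 6 relatives in either tissue. Of the 5 ferlin relatives, 2 were tested in each tissue and none was called. The highest was Myof, which encodes myoferlin, at 26.0 ± 0.697 and 25.2 ± 1.06 FPKM in OC and OT ovaries and at 24.8 ± 1.17 and 28.5 ± 1.02 FPKM in OC and OT uteruses (SD, n = 3 and 4). The uterine groups of Myof did not overlap, but its difference of 0.20 was small (SE 0.11, limma unadjusted p 0.103).

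The genes that share a domain with Cuzd1 gave no call. Of 13 zona pellucida domain genes, 9 ovary and 2 uterus genes were tested, and of 13 CUB domain genes 12 and 11 were tested. The highest were Tgfbr3, the type III TGF-beta receptor, at 55.2 ± 6.12 and 52.9 ± 8.40 FPKM in OC and OT ovaries and at 161 ± 19.1 and 138 ± 33.8 FPKM in OC and OT uteruses, and Pcolce, a procollagen proteinase enhancer, at 201 ± 10.6 and 207 ± 32.4 FPKM in the ovaries and at 72.9 ± 7.44 and 85.4 ± 17.5 FPKM in the uteruses (SD, n = 3 and 4). Of 9 estrogen-responsive uterine genes, all were tested in both tissues and none was called. The highest were Clu, which encodes clusterin, in the ovary, with OT minus OC at -0.19 (SE 0.13), and C3, the complement component, in the uterus, at 0.63 (SE 0.48), where OT2 held 1096 FPKM.

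The summed levels of some cell type markers differed between the groups in the same samples. The 6 luteal markers summed to at least 5300 FPKM in the ovaries and at most 20.5 FPKM in the uteruses, and the oocyte marker Zp3 was at 0 in all 7 uteruses. The 6 smooth muscle markers summed to 7753 to 14468 FPKM in the uteruses and to at most 2744 FPKM in the ovaries, so the tissues matched their labels. All 4 OT uteruses, at 9555 to 14468 FPKM of smooth muscle markers, were above all 3 OC uteruses, at 7753 to 9086 FPKM, with 0 of 6 markers called. Oviduct markers were also present in the ovary libraries, with a summed level of 472.5 to 995.0 FPKM over 6 markers. The 10 adipocyte markers summed to 221.6 to 381.8 FPKM in OC ovaries and 286.2 to 2574 FPKM in OT ovaries, highest in OT1 and OT2. In the uterus they summed to 99.8 to 379.5 FPKM in OC and 1882 to 16648 FPKM in OT, highest in OT1, and limma called 6 of 10 higher in OT ovaries and 10 of 10 in OT uteruses. In bulk tissue, fewer cells of a type and less RNA per cell cannot be told apart. The 10 stratified epithelium markers, 9 of them tested, summed to 2.75 to 13.5 FPKM in OC uteruses and 43.9 to 778.3 FPKM in OT uteruses, with 6 called higher, and to at most 2.54 FPKM in any ovary. The 6 urothelium markers reached 224.1 FPKM in the OT1 uterus and 82.1 FPKM in the OT2 uterus, with 13.3 to 23.5 FPKM in the other 5. Of these markers 0 of 6 were called in the uterus, and they summed to 39.1 to 59.2 FPKM in the ovaries. The 10 uterine epithelium markers were lowest in the OT1 uterus, at 165.1 FPKM against 494.1 to 765.4 FPKM in the other 6, with 0 of 10 called.

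Fer1l4, Il1rn and Cuzd1 were at their extremes in some of these libraries. The OT1 ovary held the lowest Fer1l4 and the highest Cuzd1 of the ovaries and the highest adipocyte sum. The OT1 and OT2 uteruses held the highest Fer1l4 and Il1rn and the lowest Cuzd1 of the uteruses and the highest urothelium sums. The OT3 and OT4 uteruses, with stratified epithelium sums of 778.3 and 383.3 FPKM, were the highest in those markers and nearer to OC in Fer1l4, Il1rn and Cuzd1. Acbd7 did not share this order, since it was listed at 0 in both the OT1 and the OT3 uterus and was lowest of the OT ovaries in OT1. Il1rn did not share it in the ovary. It was lowest in OT3 and OT4, at 0.203 and 0.184 FPKM, where the adipocyte sums of the OT ovaries were lowest, at 286.2 and 625.3 FPKM. In the uterus the adipocyte sum of OT2, which held the highest Fer1l4, was the lowest of the OT uteruses, at 1882 FPKM. The part of these markers in the OT minus OC values of the 4 genes was not tested. Without the OT1 uterus, OT minus OC in the uterus was 0.90 for Fer1l4, 1.03 for Il1rn, -1.59 for Cuzd1 and -2.37 for Acbd7, and without the OT1 ovary it was -1.04, -1.46, 1.08 and 1.41 in the ovary. The neutrophil markers Camp and Ngp were at 0 in all uteruses, and 8 neutrophil markers summed to 41.9 FPKM in the OT1 uterus and to between 5.28 and 20.2 FPKM in the other 6. The 8 macrophage markers, cells that can make Il1rn and Il1b, summed to 266.9 to 368.4 FPKM in OC and 354.6 to 511.2 FPKM in OT ovaries and to 356.9 to 411.1 FPKM in OC and 416.4 to 1262 FPKM in OT uteruses, with 0 of 8 called in either tissue. Of the pancreatic acinar markers, which were read because Cuzd1 is known from the pancreas, Prss2 was at 0 in all ovaries and the 8 in the table summed to at most 11.1 FPKM in any library.

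**Figure D5:**
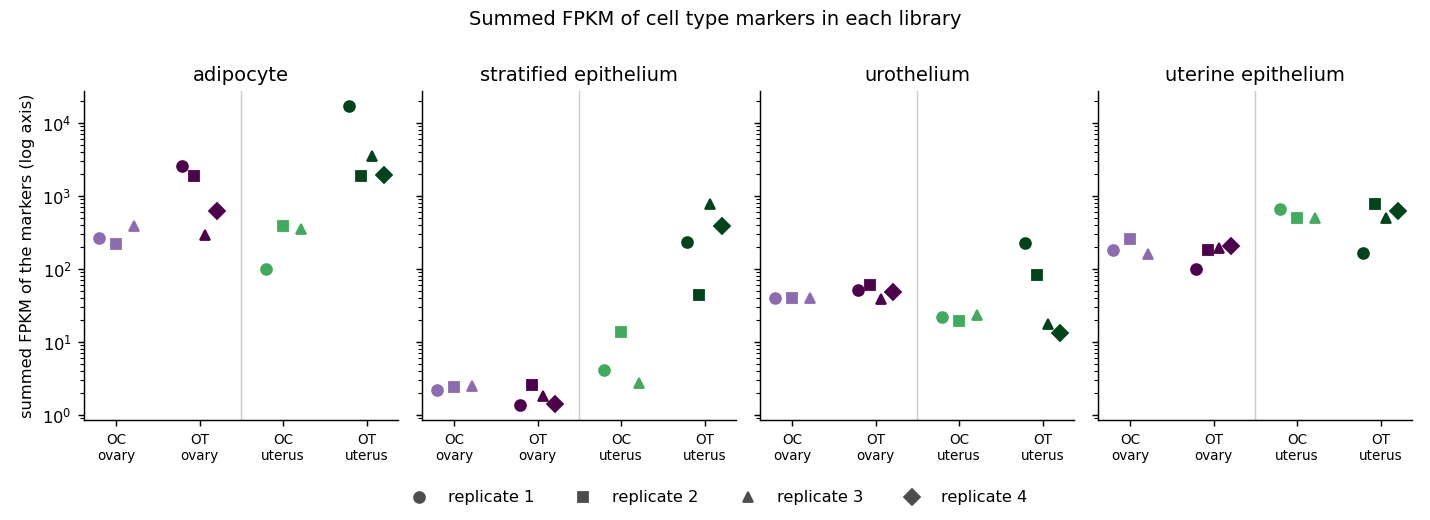
Summed FPKM (y axis, log scale) of 10 adipocyte, 10 stratified epithelium, 6 urothelium and 10 uterine epithelium markers in each library, by treatment and tissue (x axis), with one symbol per replicate number. The 4 OT uteruses lie above the 3 OC uteruses in the adipocyte and stratified epithelium panels, and the OT1 uterus lies apart in the urothelium and uterine epithelium panels.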

How the data were processed

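RNA-seq values of both organs of 3 OC and 4 OT mice were read from the deposited table, with groups and replicate numbers taken from the labels. The deposited values were FPKM per gene (fragments scaled to transcript length and library size), which the authors made by mapping rRNA-depleted, stranded libraries to mm10 with STAR 2.5 and Cufflinks 2.2.1, as the submitters' processing notes give them. The authors' tool for differential expression, Cuffdiff, needs reads and was not run here. All 21853 gene identifiers matched GENCODE M21, and total FPKM ranged from 374816 to 577494 per library. FPKM hold no read counts, so the depth is known only from the estimate given above.

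For each tissue, log2(FPKM + 0.1) of the genes that averaged 0.5 FPKM or more was fitted with limma 3.58.1 in R 4.3.3, using lmFit and then trended eBayes. The tissue difference was fitted on all 14 libraries, for genes averaging 0.25 FPKM or more, as the mean of 7 uteruses minus the mean of 7 ovaries, which includes the OT mice. Adjusted p are Benjamini-Hochberg values over all tested genes. The steps were tested on simulated data. Other steps used Python 3.11.15 with pandas 2.3.3 and scipy 1.17.1. The 4 genes, the gene lists and the marker lists were chosen with earlier results of these data known. The genes named were the 4 members, every listed relative that passed the cutoffs, the highest relative of each list in each tissue, and the 3 genes most like each member, of which 1 is not reported here. Ovary and uterus libraries that carry one name (OC1, for example) were taken as one mouse. Their deviations from the group means had a mean r of 0.16 (0.09 to 0.26 over 7 mice). Between different mice of a group the mean r was -0.06 (-0.27 to 0.27 over 18 pairs). These ranges overlap, so the pairing rests on the names. The alternatives were pseudocounts of 0.01 and 1 FPKM, no filter, upper-quartile scaling, a robust eBayes step, a block, OC or OT mice alone, and each library left out in turn.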

Additional observations from a re-analysis of the deposited data

Results flagged for a closer look

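In 14 groups of 4 libraries, those of the 4 genes and of the 3 called relatives, 2 held a library further from the others than Dixon's 95% critical value for the gap over the range allows, where chance gives 5% of groups. Dbi in OT uteruses was at 862 FPKM in OT1, with a gap of 0.842 of the range. Il1b in OT ovaries was at 2.78 FPKM in OT4, with a gap of 0.981 of the range. In 2 of the 4 genes the OT and OC libraries did not overlap in FPKM in either tissue and differed in opposite directions. Among all genes tested in both tissues, 17 of 13653 (0.125%) did so. In both genes the nearest OC and OT libraries rested on nearly equal numbers of estimated fragments. For Il1rn, OT minus OC was -1.33 (ovary) and 1.53 (uterus) on the log2(FPKM + 0.1) scale. For Cuzd1 it was 1.55 and -1.91. The difference between the tissues was not tested for either gene, because these values chose them.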

How the results depend on the processing

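The opposite signs of the 4 genes were kept in 88 of 88 recomputed OT minus OC values, and 81 of these were within 1 SD. These signs chose the genes and each value reuses the same libraries, so kept signs were likely from the start and are no separate evidence. The sign of Acbd7 in the ovary is still not settled, because of its few fragments. With a pseudocount of 0.01 FPKM, Acbd7 moved to 2.21 (ovary) and -4.48 (uterus). With a pseudocount of 1 FPKM, Acbd7 was at -1.09 and Cuzd1 at -0.70 in the uterus, and Cuzd1 was at 0.58, Fer1l4 at -0.73 and Il1rn at -0.56 in the ovary. Leaving out 1 library at a time gave, for ovary and uterus, -1.58 to -1.04 and 0.69 to 1.27 for Fer1l4, -1.61 to -1.11 and 1.03 to 1.87 for Il1rn, 0.31 to 1.78 and -3.31 to -2.33 for Acbd7, and 1.08 to 1.96 and -2.39 to -1.59 for Cuzd1. The count with a fold of at least 2 and opposite signs went from 9 to 28 without a filter, 20 and 1 with pseudocounts of 0.01 and 1 FPKM, 14 with the replicate block (chosen after seeing the data), and 7 to 14 with 1 library left out, the 14 without OC2 ovary. Genes called in both tissues with opposite signs went from 2 to 6 without a filter, 0 with a pseudocount of 1 FPKM, 1 with upper-quartile scaling, and 0 to 4 with 1 library left out, with 0 without the OC3 or the OT2 uterus and 4 without the OT4 uterus. The ovary calls went from 65 to 159 without a filter, 18 with a pseudocount of 1 FPKM and 51 to 137 with 1 library left out (137 without OT3), the uterus calls from 410 to 259 with that pseudocount and 295 to 605, and the tissue calls from 3106 to 2037 and 2977 to 3200. Replicate numbers shared by OC and OT mice are only numbers (mean r 0.13 for ovaries and 0.04 for uteruses), and a replicate block on them gave 103 ovary and 666 uterus calls. The 1 called relative of the ovary, Il1b, was lost with a pseudocount of 1 FPKM (0), with the block (0) and without OC2 or OC3, for a range of 0 to 1, and the 2 of the uterus ranged from 1 to 3, with Dbi lost without OC2, OC3 or OT1. The uterus minus ovary values of all 4 genes depended on the mice. In OC mice alone, which the choice of the genes shaped, they were 2.34 for Acbd7, 2.15 for Cuzd1, -1.88 for Il1rn and -0.12 for Fer1l4, and in OT mice alone -1.58, -1.31, 0.98 and 2.30. Acbd7 turned to -0.30 with a pseudocount of 0.01 FPKM. Without 1 mouse the values were -0.48 to 0.64 for Acbd7 (-0.22, -0.13 and -0.48 without OC1, OC2 and OC3), -0.23 to 0.81 for Cuzd1 (-0.23, -0.12 and -0.12), -0.64 to 0.15 for Il1rn (0.15 without OC3) and 0.85 to 1.56 for Fer1l4. The limma adjusted p of Fer1l4 was under 0.05 in each fit without 1 mouse and with the mouse as a replicate block (adjusted p 0.00688), but not in OC mice alone (adjusted p 0.789), and its value was under a fold of 2 without OT1 (0.85) and with a pseudocount of 1 FPKM (0.76).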
